A study of Mus musculus with 9 samples.

Results

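The 33 genes described here make cholesterol and fatty acids or control that synthesis, and they are 33 of the 53801 genes in the deposited count table. They were taken by symbol from a list whose rule used no measured value. The list was chosen with earlier results of these data known. The list holds 18 enzymes of sterol synthesis, 9 enzymes of fatty acid synthesis and desaturation, and 6 genes of the SREBP control system, with the sterol carrier Stard4 among these. All 33 passed the filter on low counts.

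RNA-seq was performed on cultured mouse spermatogonial stem cells (SSCs), the germ cells that sustain sperm production, derived from Prmt5 flox/flox; Rosa26-CreERT2 mice. In these cells 4-hydroxytamoxifen (4OHT) activates a Cre recombinase expressed from the broadly active Rosa26 locus, which removes Prmt5, the gene of an arginine methyltransferase. All 9 libraries came from cells given 1 µM 4OHT, so every group, the reference group included, carries the deletion. The 4OHT group (n = 3) has a label that names no construct, and the MU group (n = 3) and the OE group (n = 3) each received a PRMT5 construct. The labels do not spell out these abbreviations. MU was read as the catalytically dead PRMT5 (E444Q) and OE as PRMT5 (WT), both overexpressed in the 4OHT-treated knockout. The comparisons ask how either construct changed these genes in the knockout, and whether the catalytically dead form differed from the wild type. Cells treated with ethanol in place of 4OHT were not analysed here, so the values do not show the level before deletion. The sources used here give neither the promoter of the constructs nor an empty vector in the 4OHT group, so PRMT5 and the introduction of a construct cannot be told apart. They also do not say whether the 3 libraries of a group came from separate cultures. The p-values then measure only the spread between these libraries, which may be technical.

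Total counts ranged from 78751996 to 365719548 per library, and the 3 MU libraries had the highest totals. Values are given as CPM, counts relative to the library total after TMM scaling, and errors of log2 fold changes (±) are standard errors of the fit. Prmt5 itself was at 28.2 to 31.9 CPM in the 4OHT libraries, 145.2 to 147.1 CPM with MU and 1071 to 1085 CPM with OE. Markers of germ cells such as Ddx4 and Dazl were present in every library, and Gfra1, a marker of SSCs, was at 120.4 CPM with 4OHT, 27.5 with MU and 28.2 with OE on average. Markers of other cells were present too. The summed level of 10 feeder fibroblast genes, such as collagens, was 4785 to 5528 CPM with 4OHT, 3254 to 3290 with MU and 2474 to 2543 with OE. The summed level of 10 macrophage genes was 170.2 to 186.5 CPM with 4OHT, 1138 to 1171 with MU and 2213 to 2337 with OE. Summed over 12 genes, the germ cell list was at 2684 to 2742 CPM with 4OHT, 3497 to 3600 with MU and 3763 to 3792 with OE. This list was split, with 7 genes higher and 4 lower in each construct group against 4OHT. Etv5, Gfra1, Ret and Zbtb16, which mark undifferentiated cells, were the 4 that were lower (log2 fold changes with OE −3.38, −2.09, −0.89 and −0.54). Such markers did not all fall. Uchl1 and Id4, whose proteins the paper uses to mark undifferentiated cells or SSCs, went otherwise. Uchl1 was higher (0.89 with OE and 0.85 with MU), and Id4 was not called (−0.11 and −0.063). In such bulk samples, fewer cells of a type and less RNA per cell cannot be told apart.

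As background, cholesterol is built from acetyl-CoA through mevalonate, the isoprenoid farnesyl diphosphate, squalene and lanosterol, and fatty acids are built from acetyl-CoA by acetyl-CoA carboxylase and fatty acid synthase, then elongated and desaturated. The genes of both routes are classic targets of the SREBP transcription factors, encoded by Srebf1 and Srebf2, which are made as precursors in the endoplasmic reticulum. SCAP escorts them to the Golgi for cleavage when sterols are low, and the INSIG proteins hold SCAP back when sterols are plentiful. Dividing cells draw on both routes for their membranes.

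SREBP proteins are known to bind sterol regulatory elements close to the start of target genes, often beside a CCAAT box bound by NF-Y. Promoter windows of 250 bases before and 50 bases after a gene's start were read from RefSeq (GRCm38.p6) for 26 of the 33 members, and 7 members (Fads1, Fdft1, Fdps, Scd1, Scd2, Sqle and Stard4) had no entry. The windows were searched on both strands for TCACNCCAC, a common form of the sterol regulatory element, and for CCAAT. TCACNCCAC was found in 1 of the 34 member windows, that of Hmgcs1, and in 1.24% of the 32851 windows searched. CCAAT was found in a window of 21 of the 26 members (80.8%), against 41.1% of the 27025 genes with an entry. A member may have several windows, and counted by window CCAAT was in 22 of 34 against 37.4% of all windows searched. Both searches describe letters and not binding. The following 5 windows are shown because they belong to the member with the sterol regulatory element, to 3 members that were lower with either construct and have 3 CCAAT matches each, and to the member with the greatest decrease. They run 5′ to 3′ on the gene's strand, with matches of either motif in capitals (ATTGG is CCAAT on the other strand).
Hmgcs1 (chr13:119690101-119690400, plus strand): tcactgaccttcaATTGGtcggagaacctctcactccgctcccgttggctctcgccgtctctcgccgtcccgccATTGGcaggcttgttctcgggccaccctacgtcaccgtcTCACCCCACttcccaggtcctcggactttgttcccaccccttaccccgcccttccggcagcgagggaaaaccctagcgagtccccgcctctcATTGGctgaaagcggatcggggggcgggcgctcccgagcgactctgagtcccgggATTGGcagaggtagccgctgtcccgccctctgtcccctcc
Msmo1 (chr8:64733529-64733828, minus strand): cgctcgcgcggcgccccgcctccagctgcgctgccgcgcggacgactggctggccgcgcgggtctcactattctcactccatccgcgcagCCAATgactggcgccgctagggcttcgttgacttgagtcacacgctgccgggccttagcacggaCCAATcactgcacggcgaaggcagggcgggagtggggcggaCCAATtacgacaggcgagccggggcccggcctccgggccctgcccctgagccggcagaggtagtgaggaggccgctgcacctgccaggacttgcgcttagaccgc
Hsd17b7 (chr1:169969156-169969455, minus strand): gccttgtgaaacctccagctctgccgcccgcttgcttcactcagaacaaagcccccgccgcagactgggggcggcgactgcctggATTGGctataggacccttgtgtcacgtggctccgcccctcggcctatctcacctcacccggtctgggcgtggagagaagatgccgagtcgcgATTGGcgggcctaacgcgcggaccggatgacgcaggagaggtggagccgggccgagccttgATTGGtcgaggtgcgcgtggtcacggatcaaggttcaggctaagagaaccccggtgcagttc
Fasn (chr11:120824498-120824797, minus strand): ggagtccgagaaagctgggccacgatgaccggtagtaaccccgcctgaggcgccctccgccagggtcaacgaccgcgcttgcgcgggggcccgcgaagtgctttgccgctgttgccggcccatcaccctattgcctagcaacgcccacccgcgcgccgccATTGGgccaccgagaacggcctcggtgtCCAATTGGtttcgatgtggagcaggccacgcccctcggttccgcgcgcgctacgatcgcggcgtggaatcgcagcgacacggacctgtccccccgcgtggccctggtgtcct
Elovl6 (chr3:129532136-129532435, plus strand): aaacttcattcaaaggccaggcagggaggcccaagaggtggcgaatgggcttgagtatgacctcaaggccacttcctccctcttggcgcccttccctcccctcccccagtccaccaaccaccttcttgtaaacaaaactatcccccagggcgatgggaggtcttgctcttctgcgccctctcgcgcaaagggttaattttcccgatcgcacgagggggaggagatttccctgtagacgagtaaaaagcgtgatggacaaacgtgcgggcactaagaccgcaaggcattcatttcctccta
The TCACCCCAC of Hmgcs1 starts 137 bases before the start of the gene and lies among 4 CCAAT matches. In Fasn, 2 of the 3 matches overlap each other within CCAATTGG. Elovl6 holds neither motif in this window. CCAAT was found for 12 of the 17 members with an entry that were lower with OE, for 4 of the 4 that were higher and for 5 of the 5 that were not called. Acaca was among the lower members without CCAAT. Its only window (chr11:84195188-84195487) lies inside the gene as annotated (chr11:84129672-84401651), so the outermost start of Acaca was not searched. Members with the motif thus occur among those that changed in either direction and those that did not.

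Cells that received a PRMT5 construct had lower RNA levels of most enzymes of sterol and fatty acid synthesis than cells with 4OHT alone. Lower levels were most pronounced for the desaturases Scd1 and Scd2 and the elongase Elovl6, which fell by 2.26-fold or more with either construct. Of the early mevalonate enzymes, Acat2 and Mvk were lower and Hmgcs1, Pmvk, Mvd and Idi1 did not pass the test, and Dhcr7, Fdps and Acss2 were higher. With OE, 27 of the 33 members passed the test, 6 higher and 21 lower. This is 81.8% of the members, against 57.8% of all 22452 genes tested, of which 29.9% were higher and 27.9% lower. With MU, 26 members passed, 6 higher and 20 lower. This is 78.8% of the members, against 56.0% of all genes tested, of which 29.5% were higher and 26.5% lower. Calls are at an adjusted p below 0.05 in edgeR's quasi-likelihood test on all 9 libraries. The median log2 fold change of the members was −0.38 with OE and −0.42 with MU, against 0.018 and 0.043 for all genes tested. Most genes in the table of tested genes passed as well, so the number of members called says less than their direction and size. The counts of single lists against 4OHT, marker lists included, are to be read against the same shares. Both comparisons use the same 3 libraries of 4OHT, and a deviation of these libraries enters both. The 26 members called in both comparisons had the same direction in each. With each library left out in turn, 26 to 28 members passed with OE and 24 to 28 with MU.

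**Figure D1:**
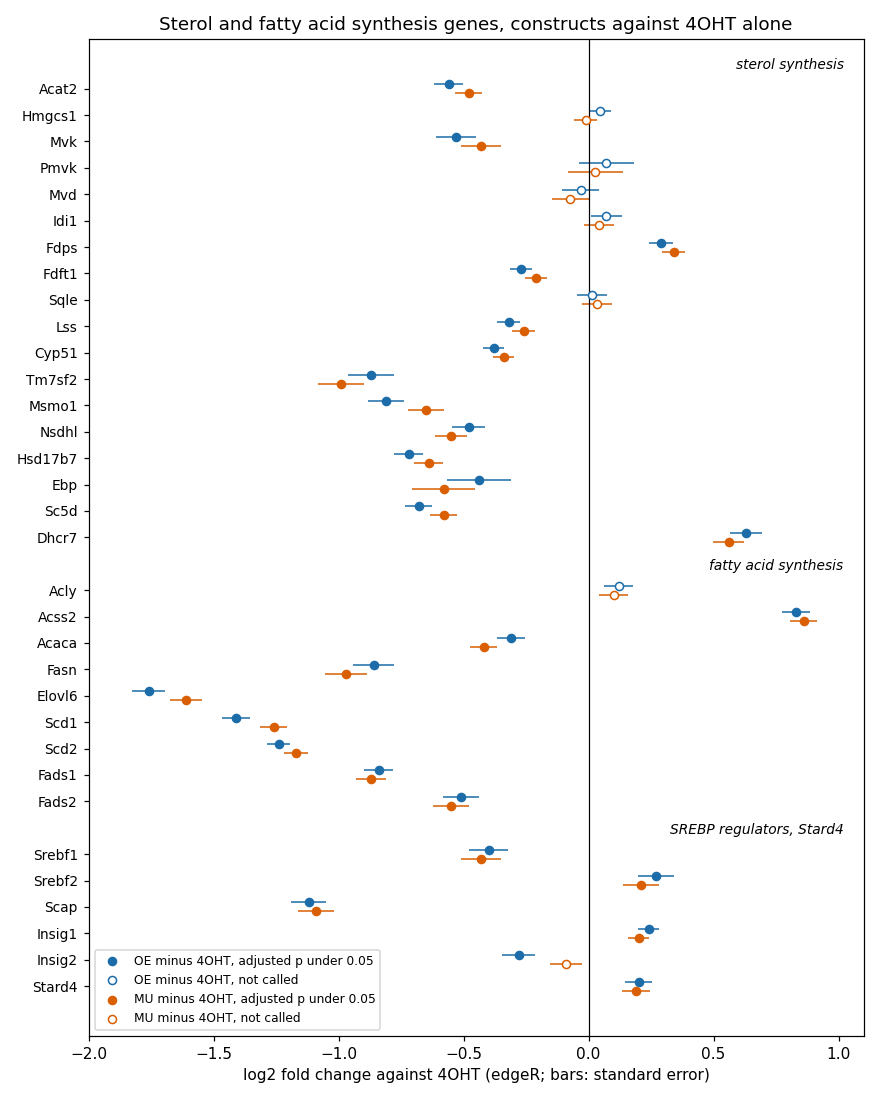
Log2 fold change (x axis) of each of the 33 members (y axis, in pathway order) in OE (blue) and MU (orange) against 4OHT alone, with bars for the standard error and filled points for an adjusted p below 0.05. Points to the left of 0 are lower with a construct, Elovl6 is the farthest to the left (−1.76 with OE) and Acss2 the farthest to the right (0.86 with MU).

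Among the 7 enzymes that lead from acetyl-CoA to farnesyl diphosphate, 3 passed the test in each comparison, Acat2 and Mvk lower and Fdps higher. This is 42.9% of them, below the 57.8% (OE) and 56.0% (MU) of all genes tested. Hmgcs1, the HMG-CoA synthase, was at 261.2, 249.0 and 247.1 CPM with 4OHT, 253.3, 245.3 and 252.6 CPM with MU and 267.9, 254.6 and 258.5 CPM with OE. Both construct groups overlapped the 4OHT group, with a log2 fold change of 0.045 ± 0.045 for OE (adjusted p = 0.418) and −0.012 ± 0.045 for MU (adjusted p = 0.85). Pmvk and Mvd, which phosphorylate and decarboxylate mevalonate intermediates, and Idi1, the isopentenyl diphosphate isomerase, did not pass either test. Their log2 fold changes lay between −0.074 (Mvd with MU) and 0.071 (Pmvk and Idi1 with OE). For Hmgcs1, Pmvk and Mvd the sign of these small differences also turned with the scaling or with single libraries left out. Under scaling to library size alone, edgeR called Hmgcs1 (0.132, adjusted p = 0.021) and Idi1 (0.158, adjusted p = 0.0439) higher with OE. That scaling raised the median of all genes by 0.088 with OE.

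Acat2, the acetyl-CoA acetyltransferase of the cytosol, was at 96.7, 98.9 and 91.3 CPM with 4OHT, 67.9, 66.7 and 71.1 CPM with MU and 68.6, 65.4 and 61.0 CPM with OE. Every library with a construct was below every library without one. The level was 1.47-fold lower with OE (log2 fold change −0.56 ± 0.056, adjusted p = 1.08e-06) and 1.39-fold lower with MU (adjusted p = 4.87e-06). Mvk, the mevalonate kinase, fell by 0.53 on the log2 scale with OE and by 0.43 with MU. Fdps, the farnesyl diphosphate synthase, stood at 155.4, 153.6 and 143.1 CPM with 4OHT, 190.4, 193.6 and 189.9 CPM with MU and 180.4, 187.9 and 183.3 CPM with OE. Its construct libraries were all higher, by 1.22-fold with OE (adjusted p = 0.000105) and 1.27-fold with MU (adjusted p = 2.06e-05).

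The 3 enzymes that turn farnesyl diphosphate into lanosterol showed small differences. Fdft1, the squalene synthase that commits the route to sterols, was at 143.9, 142.9 and 137.3 CPM with 4OHT, 124.5, 118.2 and 124.4 CPM with MU and 118.9, 114.7 and 117.7 CPM with OE. It was lower in every construct library, by 1.21-fold with OE (log2 fold change −0.27 ± 0.045, adjusted p = 0.000142) and 1.16-fold with MU (−0.21 ± 0.045, adjusted p = 0.00127). Under scaling to library size alone, the MU difference of Fdft1 was −0.096 and was not called (adjusted p = 0.0866). Fdft1 shares 774 bases of exon with Ctsb on the opposite strand, and the sources used here do not state whether strand was kept. Sqle, the squalene epoxidase, was at 113.0, 114.6 and 132.8 CPM with 4OHT, 124.5, 120.3 and 124.6 CPM with MU and 118.4, 124.6 and 120.4 CPM with OE. Its 9 libraries overlapped throughout, the log2 fold change was 0.012 ± 0.060 with OE (adjusted p = 0.883) and 0.035 ± 0.060 with MU (adjusted p = 0.648), and its sign turned under other settings. Lss, the lanosterol synthase, was lower by 1.25-fold with OE and 1.2-fold with MU.

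The 8 enzymes that convert lanosterol towards cholesterol all passed the test in both comparisons. Of these, 7 were lower and Dhcr7 was higher, and the median log2 fold change was −0.58 with OE and −0.58 with MU. Tm7sf2, a sterol reductase, was at 31.7, 39.3 and 40.8 CPM with 4OHT, 17.4, 20.1 and 18.9 CPM with MU and 19.4, 20.7 and 21.0 CPM with OE. No construct library reached the lowest 4OHT library, and the level was 1.83-fold lower with OE (log2 fold change −0.87 ± 0.092, adjusted p = 1.76e-06) and 1.98-fold lower with MU (−0.99 ± 0.091, adjusted p = 4.99e-07). Tm7sf2 shares 532 bases of exon with Vps51 on the same strand, and reads in that stretch could be assigned to either gene.

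Msmo1, which oxidizes the methyl groups of sterols, was at 100.5, 90.1 and 87.8 CPM with 4OHT, 64.7, 54.3 and 58.0 CPM with MU and 55.9, 50.3 and 52.3 CPM with OE. It was lower in all construct libraries, by 1.76-fold with OE (log2 fold change −0.81 ± 0.073, adjusted p = 3.5e-07) and 1.57-fold with MU (adjusted p = 3.19e-06). Hsd17b7, the sterol ketone reductase that acts in the same removal of methyl groups, was at 68.2, 60.1 and 63.7 CPM with 4OHT, 40.9, 40.1 and 42.3 CPM with MU and 40.3, 37.5 and 39.0 CPM with OE. The groups with and without a construct were far apart, and the decrease was 1.64-fold with OE and 1.56-fold with MU. Sc5d, a sterol desaturase of the late route, was at 77.4, 72.9 and 72.3 CPM with 4OHT, 49.8, 48.2 and 51.2 CPM with MU and 44.8, 45.6 and 48.1 CPM with OE. This decrease was 1.61-fold with OE and 1.49-fold with MU (adjusted p = 8.08e-08 and 4.64e-07).

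Cyp51 and Nsdhl, the lanosterol demethylase and a sterol dehydrogenase, were lower by 0.38 and 0.48 on the log2 scale with OE (log2 fold changes −0.38 and −0.48) and by 0.34 and 0.55 with MU (−0.34 and −0.55). Ebp, the sterol isomerase, had the lowest level per length of exon of the 33 genes (3.19 CPM per kb with 4OHT). Its values were 7.29, 7.94 and 6.86 CPM with 4OHT, 4.62, 4.92 and 5.25 CPM with MU and 4.61, 6.3 and 5.34 CPM with OE. Ebp was lower in each construct library, by 0.44 on the log2 scale with OE (log2 fold change −0.44 ± 0.13, adjusted p = 0.00919), a call that was lost without the first OE library (adjusted p = 0.0523).

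Dhcr7, the reductase of the last steps to cholesterol, ran against its neighbours. It was at 121.6, 111.5 and 134.4 CPM with 4OHT, 177.2, 187.6 and 176.4 CPM with MU and 192.2, 191.7 and 184.5 CPM with OE. All construct libraries exceeded the highest 4OHT library, with an increase of 1.55-fold with OE (log2 fold change 0.63 ± 0.062, adjusted p = 8.95e-07) and 1.47-fold with MU (0.56 ± 0.062, adjusted p = 3.12e-06). Over the 18 sterol enzymes, 13 passed the test in each comparison, 2 higher and 11 lower, with medians of −0.35 (OE) and −0.3 (MU) on the log2 scale. This is 72.2% of them, against 57.8% (OE) and 56.0% (MU) of all genes tested.

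**Figure D2:**
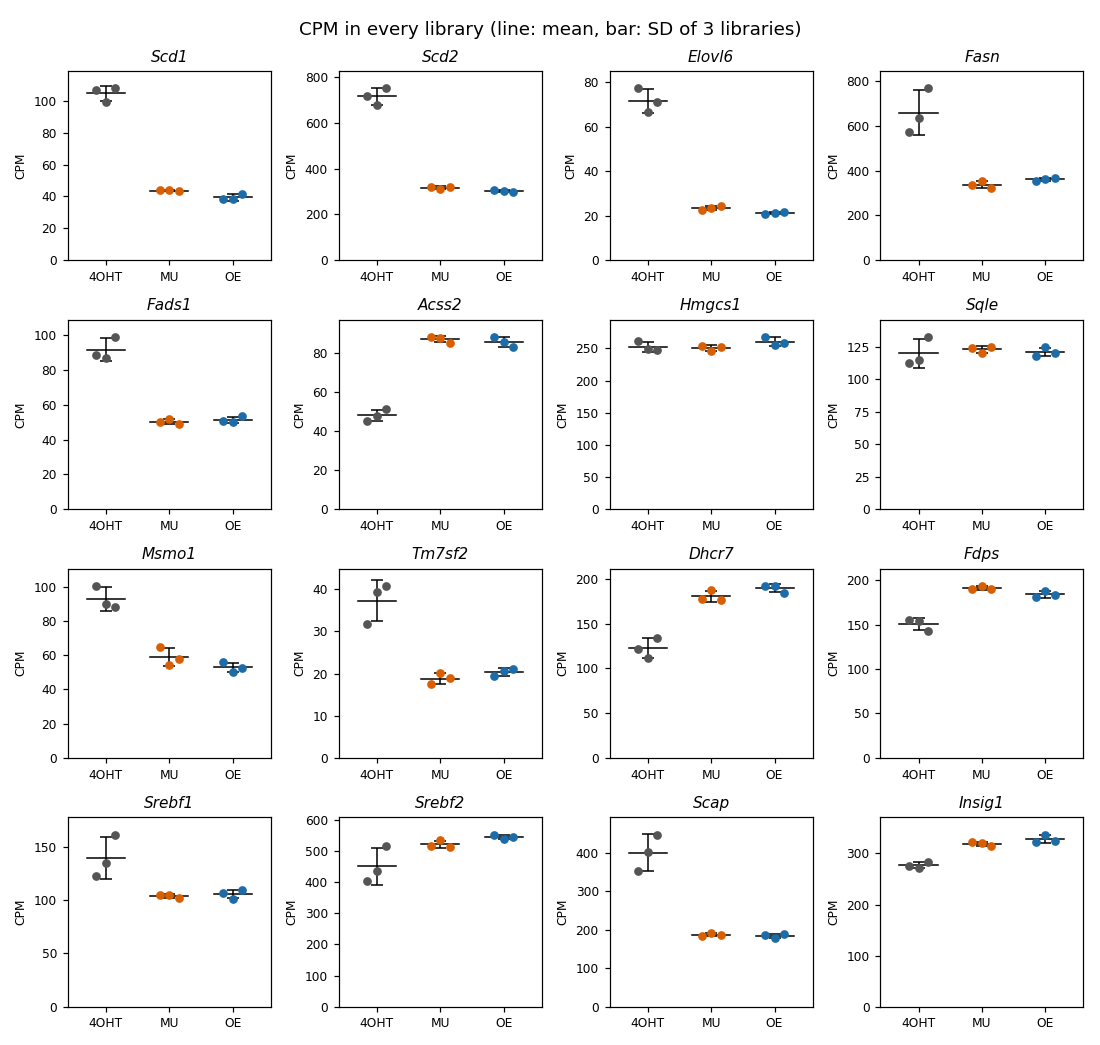
CPM (y axis, starting at 0) of 16 members in each of the 9 libraries, with a line at the mean and a bar for the SD of the 3 libraries of a group. The MU and OE points lie close to each other in every panel, below the 4OHT points for Scd1, Scd2, Elovl6 and Scap and above them for Acss2, Dhcr7 and Fdps, while both construct groups overlap the 4OHT points for Hmgcs1 and Sqle.

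Of the 9 genes of fatty acid synthesis, 8 passed the test in each comparison, 7 lower and Acss2 higher. This is 88.9% of them, against 57.8% (OE) and 56.0% (MU) of all genes tested. The median log2 fold change was −0.84 with OE and −0.87 with MU. Among those that were lower, the carboxylase Acaca fell least, and Elovl6, Scd1 and Scd2, which act on the finished chain, fell most.

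The enzymes that supply acetyl-CoA did not fall. Acly, the ATP citrate lyase that makes it from citrate, was at 554.9, 576.4 and 655.0 CPM with 4OHT, 636.5, 643.5 and 635.5 CPM with MU and 665.3, 636.9 and 641.3 CPM with OE. Its groups overlapped because of the third 4OHT library, with a log2 fold change of 0.12 ± 0.057 for OE (adjusted p = 0.0819) and 0.1 ± 0.056 for MU (adjusted p = 0.15). Without that library both were called, at 0.186 (adjusted p = 0.000426) and 0.169 (adjusted p = 0.000971). Acss2, which makes acetyl-CoA from acetate, was at 45.3, 47.8 and 51.2 CPM with 4OHT, 88.5, 87.8 and 85.5 CPM with MU and 88.4, 86.0 and 83.1 CPM with OE. This was the largest increase among the 33 genes, 1.78-fold with OE (log2 fold change 0.83 ± 0.054, adjusted p = 1.21e-08) and 1.81-fold with MU (0.86 ± 0.054, adjusted p = 1.05e-08). Per kb of exon, Acss2 was at 0.042 of the Acly level with 4OHT, 0.071 with MU and 0.0688 with OE. These ratios rest on the exons of all annotated transcripts together, 10163 bases for Acss2 and 5279 for Acly. The Acss2 level is understated if the cells express a shorter transcript. Acss2 shares up to 395 bases of exon with Gss on the opposite strand.

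Acaca, the acetyl-CoA carboxylase that makes malonyl-CoA, was at 193.6, 187.8 and 217.0 CPM with 4OHT, 146.5, 154.3 and 147.8 CPM with MU and 159.5, 163.9 and 158.2 CPM with OE. It was lower in every construct library, by 1.24-fold with OE (log2 fold change −0.31 ± 0.056, adjusted p = 0.000243) and 1.33-fold with MU (−0.42 ± 0.056, adjusted p = 1.95e-05). Fasn, the fatty acid synthase (chr11:120805846-120824547 in GRCm38), was at 572.7, 634.1 and 768.5 CPM with 4OHT, 336.2, 354.0 and 321.0 CPM with MU and 354.4, 363.4 and 367.8 CPM with OE. The 4OHT libraries of Fasn spread widely around their mean of 658.4 CPM, and still all lay above every construct library. The decrease was 1.82-fold with OE (log2 fold change −0.86 ± 0.083, adjusted p = 7.1e-07) and 1.95-fold with MU (−0.97 ± 0.083, adjusted p = 2.52e-07).

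Elovl6, which lengthens the chain made by Fasn (chr3:129532355-129638495), was at 77.3, 66.4 and 71.1 CPM with 4OHT, 22.6, 23.4 and 24.1 CPM with MU and 20.6, 21.4 and 21.5 CPM with OE. This was the largest change among the 33 genes in either comparison, 3.38-fold lower with OE (log2 fold change −1.76 ± 0.065, adjusted p = 4.39e-11) and 3.06-fold lower with MU (−1.61 ± 0.064, adjusted p = 1.18e-10). Scd1 and Scd2 are neighbouring stearoyl-CoA desaturases on chromosome 19 (chr19:44394455-44407879 and chr19:44293674-44306864), which make monounsaturated fatty acids. Scd1 was at 106.9, 99.5 and 108.1 CPM with 4OHT, 43.9, 43.8 and 43.5 CPM with MU and 38.4, 38.1 and 41.7 CPM with OE. It was 2.66-fold lower with OE (log2 fold change −1.41 ± 0.055, adjusted p = 7.27e-11) and 2.4-fold lower with MU (−1.26 ± 0.054, adjusted p = 2.51e-10).

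Scd2 was at 716.1, 677.4 and 752.1 CPM with 4OHT, 318.7, 310.8 and 321.5 CPM with MU and 307.5, 301.4 and 298.4 CPM with OE. Scd2 was 2.36-fold lower with OE (log2 fold change −1.24 ± 0.048, adjusted p = 6.11e-11) and 2.26-fold lower with MU (−1.17 ± 0.047, adjusted p = 1.4e-10), and for both desaturases no construct library came near the 4OHT range. Scd2 had the highest level per kb of exon of the 33 genes with 4OHT, at 130.9 CPM per kb, but ranked behind Acly, Insig1 and Srebf2 with MU and also behind Hmgcs1 with OE. Scd2 exceeded Scd1 per kb by 6.0 to 6.23 times with 4OHT, 6.36 to 6.62 times with MU and 6.4 to 7.18 times with OE. The desaturases resemble each other in sequence, and how reads that fit both were counted is not given in the sources used here, so their separate values are uncertain to that degree.

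Fads1 and Fads2, the neighbouring desaturases of polyunsaturated fatty acids (chr19:10182888-10196877 and chr19:10062765-10101746), were also lower. Fads1 was at 89.0, 87.1 and 99.2 CPM with 4OHT, 50.3, 51.7 and 48.9 CPM with MU and 50.5, 50.1 and 53.5 CPM with OE. Its decrease was 1.79-fold with OE and 1.82-fold with MU (adjusted p = 2.76e-08 and 2.13e-08). Fads2 was at 58.5, 59.6 and 70.5 CPM with 4OHT, 41.1, 43.8 and 44.0 CPM with MU and 44.0, 46.5 and 42.2 CPM with OE. All Fads2 libraries with a construct were below those without, by 1.42-fold with OE and 1.46-fold with MU (adjusted p = 3.31e-05 and 1.59e-05). Per kb, Fads1 was at 0.964 to 1.04 of Fads2 with 4OHT, 0.762 to 0.837 with MU and 0.738 to 0.867 with OE, so the ranges with and without a construct did not overlap.

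**Figure D3:**
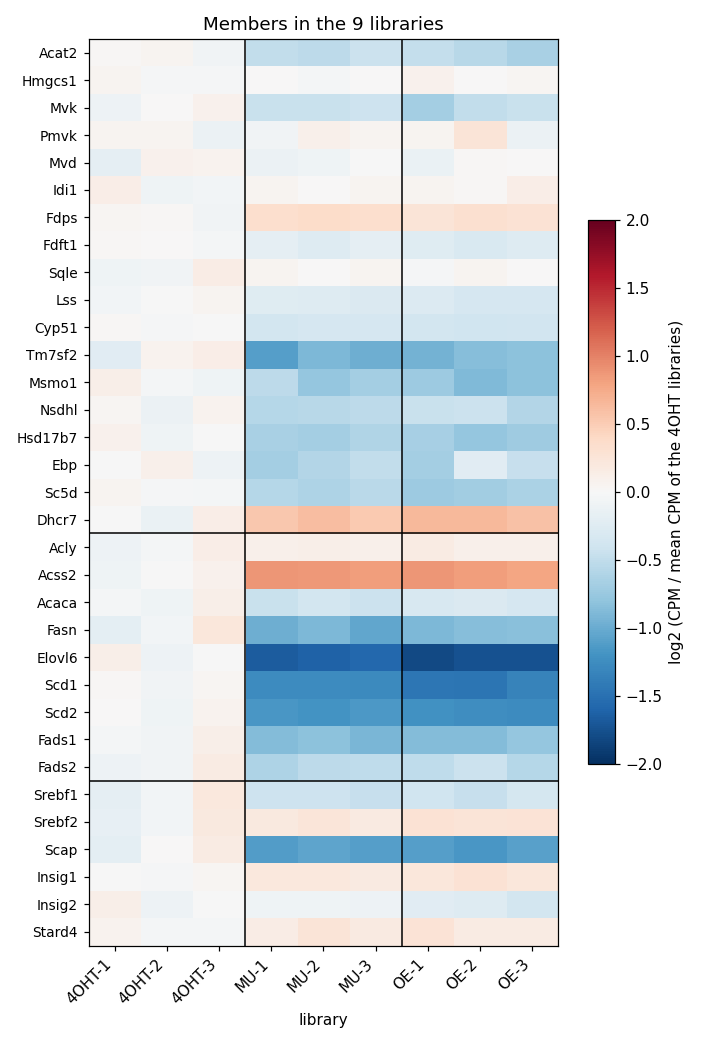
Log2 ratio of each library's CPM to the mean of the 4OHT libraries (color, from −2 in blue to 2 in red) for the 33 members (rows, in pathway order) in the 9 libraries (columns). The 6 construct libraries share blue rows from Elovl6 to Scd2 and for Scap and red rows for Acss2 and Dhcr7, and the third 4OHT library is above its group in Fasn, Srebf1 and Srebf2.

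The genes that control the route moved in different directions. Srebf1, whose protein mainly drives fatty acid synthesis, was at 122.9, 134.9 and 161.5 CPM with 4OHT, 104.9, 104.6 and 101.6 CPM with MU and 106.5, 101.3 and 109.3 CPM with OE. It was lower in all construct libraries, by 1.32-fold with OE (log2 fold change −0.4 ± 0.079, adjusted p = 0.000537) and 1.35-fold with MU (−0.43 ± 0.078, adjusted p = 0.00031). Srebf2, whose protein mainly drives sterol synthesis, was at 402.2, 435.5 and 517.0 CPM with 4OHT, 516.0, 535.0 and 514.2 CPM with MU and 552.7, 538.3 and 545.4 CPM with OE. It was higher in every OE library, with a log2 fold change of 0.27 ± 0.072 (adjusted p = 0.00488). The MU range touched the third 4OHT library of Srebf2, with a log2 fold change of 0.21 ± 0.072 (adjusted p = 0.0237). That MU call was lost without the first 4OHT library (adjusted p = 0.13), the second 4OHT library (0.0612), the second MU library (0.104) or the third MU library (0.0646), and with DESeq2's size factors (0.051). Srebf2 was at 2.51 to 2.57 times Srebf1 per kb with 4OHT, 3.86 to 4.01 times with MU and 3.91 to 4.17 times with OE.

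Scap, the escort of both SREBP precursors (chr9:110333288-110384950), was at 351.7, 402.6 and 447.5 CPM with 4OHT, 184.0, 192.3 and 186.4 CPM with MU and 186.3, 178.7 and 188.9 CPM with OE. This was a 2.17-fold decrease with OE (log2 fold change −1.12 ± 0.071, adjusted p = 9.66e-09) and a 2.14-fold decrease with MU (−1.09 ± 0.071, adjusted p = 1.38e-08). Per kb, Srebf2 stood at 1.12 to 1.2 times Scap with 4OHT, 2.86 to 2.91 times with MU and 2.99 to 3.12 times with OE. Scap shares 985 bases of exon with 5830462I19Rik on the opposite strand, so a part of its counts may belong to that gene if strand was not kept.

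Insig1, the retention protein that is itself an SREBP target, was at 274.9, 272.1 and 283.3 CPM with 4OHT, 321.9, 320.7 and 314.0 CPM with MU and 322.8, 336.7 and 324.0 CPM with OE. All construct libraries were higher, by 1.18-fold with OE (log2 fold change 0.24 ± 0.043, adjusted p = 0.000202) and 1.15-fold with MU (0.2 ± 0.042, adjusted p = 0.000918). Insig2, its relative, was at 47.6, 40.8 and 43.5 CPM with 4OHT, 41.5, 41.3 and 41.0 CPM with MU and 37.5, 36.9 and 34.1 CPM with OE. The OE libraries lay below all others, with a log2 fold change of −0.28 ± 0.065 against 4OHT (adjusted p = 0.00184), while MU against 4OHT was −0.092 ± 0.064 (adjusted p = 0.246). Stard4, which carries sterols between membranes, was at 81.4, 75.5 and 74.8 CPM with 4OHT, 85.2, 92.2 and 87.6 CPM with MU and 93.4, 86.5 and 86.2 CPM with OE. It was higher in every construct library, by 1.15-fold with OE (adjusted p = 0.00614) and 1.14-fold with MU (adjusted p = 0.00722), and the MU call was lost without the second MU library (adjusted p = 0.0675). Of the 6 control genes, 6 passed the test with OE (100% against 57.8% of all genes tested) and 5 with MU (83.3% against 56.0%). In each comparison 3 of them were higher, and without the second MU library 3 passed with MU.

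These changes stood beside changes in the markers of other cells. Against 4OHT, all 10 feeder fibroblast genes were lower with OE (median log2 fold change −1.06), and 9 were lower and 1 higher with MU (median −0.68). All 10 macrophage genes were higher, with medians of 4.23 (OE) and 3.42 (MU), and 8 of 9 genes of alveolar-type macrophages were higher in each. Of 8 adipocyte genes, 6 were tested and all were higher with either construct. Fabp4 and Pparg stand on this list and on that of alveolar-type macrophages, so the lists are not independent. Lep and Cfd were not tested, at up to 0.0463 and 0.0478 CPM in a library. Adipoq, which defines fat cells, was at 0.105 CPM with 4OHT, 0.393 with MU and 0.516 with OE on average, with log2 fold changes of 2.31 (OE) and 1.92 (MU). Plin1, of fat droplets, was at 0.356, 1.18 and 2.57 CPM in the same order of groups, Cidec at 0.195, 0.519 and 0.522 CPM, and Lpl at 5.41, 80.6 and 250.6 CPM. Of 6 Sertoli cell genes, 5 were tested and 4 passed with either construct, 2 higher and 2 lower, and their summed level was 22.9 to 26.6 CPM with 4OHT, 16.6 to 18.1 with MU and 14.8 to 18.3 with OE. Of 6 Leydig cell genes, 2 were tested. Star, which brings cholesterol into mitochondria, was at 5.54 CPM with 4OHT, 6.41 with MU and 6.1 with OE and was not called. Cyp11a1, which starts steroid synthesis from cholesterol, was called higher with either construct (adjusted p = 0.000864 with OE and 0.000232 with MU), at 0 CPM with 4OHT, 0.302 with MU and 0.152 with OE. Hsd3b1 and Lhcgr had a count of 0 in all 9 libraries, which allows up to 0.0395 CPM in the shallowest library (3 counts, covering counting error only). The part that these cells had in the levels of sterol and fatty acid genes was not tested.

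MU and OE differ in the RNA level of Prmt5 as well as in the catalytic activity of the construct. Prmt5 RNA was 7.36-fold lower with MU (146.1 against 1076 CPM), and level and activity cannot be told apart. At the protein level, the paper reports from western blots that either form restored PRMT5. Between the constructs, the 33 genes stayed close together. None was called between MU and OE in edgeR's test, against 3.17% of all genes tested (2.12% higher and 1.06% lower with MU). DESeq2 also called 0 of the 33. At an unadjusted p below 0.05, 4 members differed (Msmo1, Elovl6, Scd1 and Insig2), which is 4 of 33 against 12.4% of all genes. The libraries of MU and OE did not overlap for 11 members, 6 higher and 5 lower with MU, against 25.9% of all genes. The log2 differences of MU minus OE ran from −0.14 (Ebp) to 0.19 (Insig2) with a median of −0.0051. Their 95% intervals from the fit lay within ±0.5 on the log2 scale for all 33, with the lowest bound at −0.41 (Ebp) and the highest at 0.33 (Insig2). A p above the threshold does not show that the levels were the same, but differences beyond these bounds lie outside the intervals.

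Insig2 had the smallest p of the 33, with a log2 difference of 0.19 ± 0.064 (unadjusted p = 0.0106, adjusted p = 0.175). In a fit of the 6 construct libraries alone Insig2 was called (0.194, adjusted p = 0.0237), and it was the only member called in that fit. Scd1 was 0.15 ± 0.054 higher with MU on the log2 scale (unadjusted p = 0.0167, adjusted p = 0.229) and Elovl6 was 0.14 ± 0.063 higher (unadjusted p = 0.0432, adjusted p = 0.373). The sterol enzymes had a median difference of 0.031 and the fatty acid enzymes one of −0.021, with a sign for the latter that turned under other scalings. For single members, 3 libraries against 3 cannot give a two-sided exact permutation p below 0.1.

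The fibroblast and macrophage lists did differ between the constructs in the same fit. All 10 fibroblast genes were higher with MU (median log2 difference 0.38) and 8 of 10 macrophage genes were lower (median −0.96). The germ cell list had no call by edgeR among 12 genes, with 3 at an unadjusted p below 0.05, and the Sertoli and Leydig lists had none called either, with 1 and 0 at that level.

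**Figure D4:**
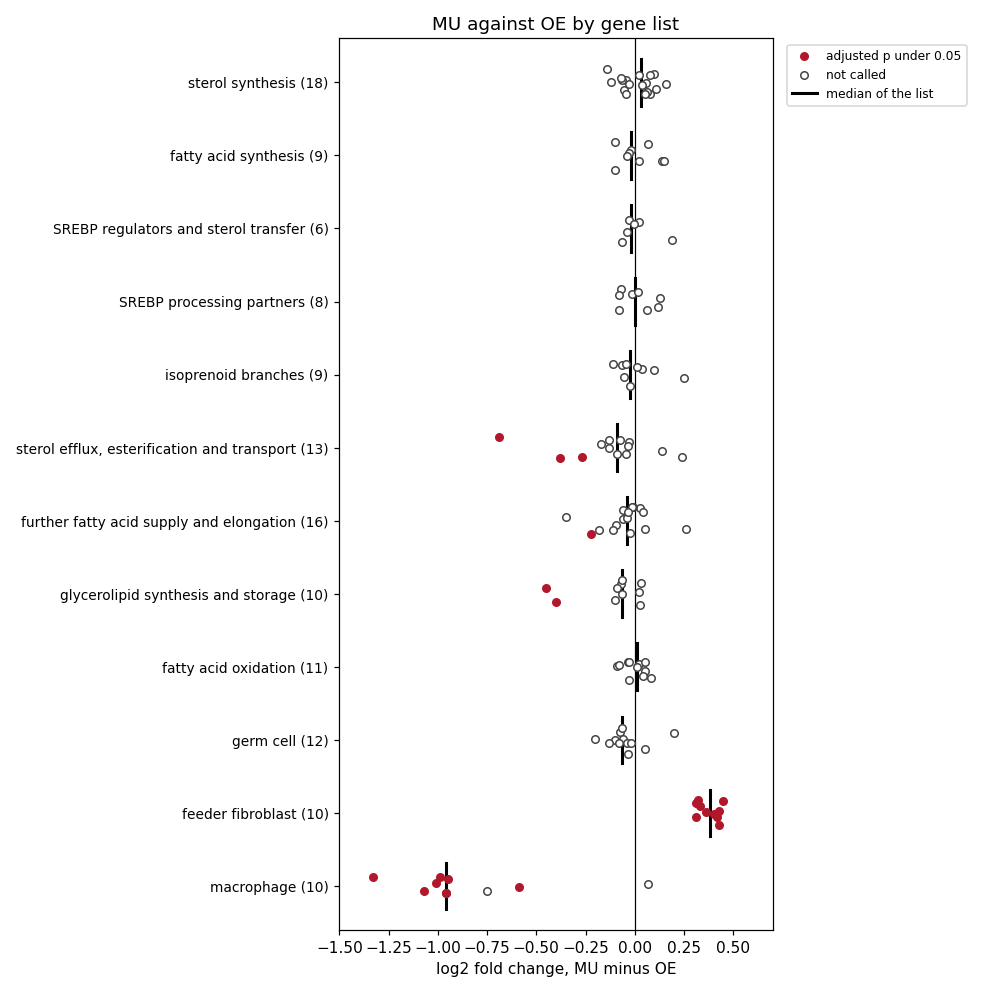
Log2 fold change of MU minus OE (x axis) for each gene of the member lists, further lipid lists and 3 marker lists (y axis, number of genes tested in brackets), with filled points for an adjusted p below 0.05 and a bar at the list's median. All 33 members are unfilled and within −0.14 to 0.19, while the 10 fibroblast genes lie to the right and most macrophage genes to the left.

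The genes around these routes were taken from 6 further lists of 67 genes in all. With OE, 50 of the 67 passed the test, 22 higher and 28 lower, which is 74.6% against 57.8% of all genes tested. With MU 52 passed, 21 higher and 31 lower, which is 77.6% against 56.0% of all genes. The counts of the single lists below are to be read against the same shares. The 8 processing partners of the SREBPs had 6 called in each comparison, 2 higher and 4 lower. Sec23a and Sec24d, coat proteins of the vesicles that carry SCAP to the Golgi, were at −1.0 and −1.0 on the log2 scale with OE and −0.87 and −0.88 with MU. Erlin1 and Erlin2, which assist protein degradation in the endoplasmic reticulum, were higher at 0.58 and 0.38 with OE and 0.56 and 0.3 with MU. Mbtps1, the protease that first cuts the SREBPs, was at −0.18 and −0.25, and Mbtps2, the second protease, was not called (−0.096 and −0.18).

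The isoprenoid branches that leave the route at farnesyl diphosphate had 7 of 9 genes called with OE, 4 higher and 3 lower, and 5 with MU, 3 higher and 2 lower. Dhdds and Nus1 form the enzyme that makes dolichol, the lipid carrier of sugars, and they moved apart. Dhdds was at 0.76 (OE) and 0.77 (MU) on the log2 scale, and Nus1 at −0.45 and −0.49. Pdss1, which makes the side chain of coenzyme Q, was at 0.52 and 0.56, and Fntb, a subunit of the enzyme that adds farnesyl to proteins, at −0.4 and −0.43.

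The list of sterol efflux, esterification and transport had 9 of 13 called with OE, 4 higher and 5 lower, and 11 with MU, 4 higher and 7 lower. Npc2, which hands cholesterol out of lysosomes, fell by 1.01 on the log2 scale with OE and by 0.87 with MU, and Vldlr, a lipoprotein receptor, fell by 0.65 and 0.41. Nr1h3, 1 of the LXR sterol sensors, and the LXR targets Abcg1 and Mylip were higher with OE, by 1.47, 0.93 and 0.87 on the log2 scale. With MU these were 0.79, 0.55 and 0.84. Abca1, another target of LXR, was lower at −0.23 and −0.35. Nr1h3 was a rare transcript at 1.94 CPM with 4OHT and 5.4 CPM with OE. Nr1h2, the other LXR gene, was at 76.3 CPM with 4OHT and was not called (0.15 with OE and 0.11 with MU).

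**Figure D5:**
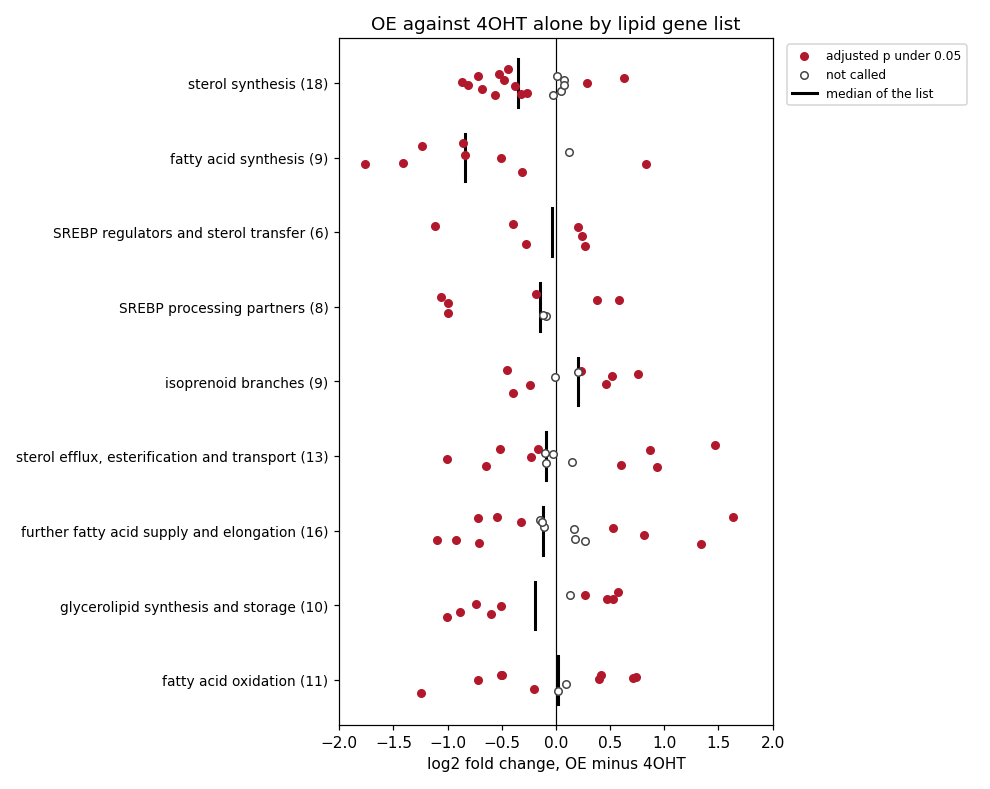
Log2 fold change of OE minus 4OHT (x axis) for each gene of the 3 member lists and 6 further lipid lists (y axis, number of genes tested in brackets), with filled points for an adjusted p below 0.05 and a bar at the list's median. The fatty acid synthesis list has the lowest median (−0.84), and the further lists hold called genes on both sides of 0.

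Of 16 further genes of fatty acid supply and elongation, 10 passed with OE, 4 higher and 6 lower, and 13 with MU, 5 higher and 8 lower. Me1, the malic enzyme that supplies NADPH to fatty acid synthase, fell by 1.1 on the log2 scale with OE and by 1.05 with MU. Slc25a1, the citrate carrier that feeds Acly, was at −0.72 and −0.69. Acsl1, which activates fatty acids, was higher at 1.34 and 1.11, and Acsl5, of the same family, lower at −0.92 and −1.03. Elovl7, an elongase, had the greatest rise of the list (1.63 and 1.61) from 0.528 CPM with 4OHT to 1.62 CPM with OE.

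In glycerolipid synthesis and storage, 9 of 10 genes passed with OE, 4 higher and 5 lower, and 8 with MU, 3 higher and 5 lower. The acyltransferases Agpat2 and Agpat3, which build phosphatidic acid, were lower (−1.01 and −0.89 with OE, −0.98 and −0.99 with MU), and Dgat1 and Dgat2, which finish triglycerides, were higher (0.57 and 0.47 with OE, 0.51 and 0.38 with MU). Pnpla2, the lipase of lipid droplets, was at 0.53 with OE and, not called, at 0.081 with MU. In fatty acid oxidation, 9 of 11 passed in each comparison, 4 higher and 5 lower. Cpt1a, which admits fatty acids to mitochondria, fell by 1.25 on the log2 scale with OE and by 1.28 with MU. Acadm and Hadhb, enzymes of beta-oxidation, were higher at 0.74 and 0.71 with OE and 0.76 and 0.63 with MU.

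Between the constructs, 6 of the 67 further genes were called, and each was lower with MU. They were Abcg1 (−0.38), Nr1h3 (−0.69), Scarb1 (−0.27), Acsl1 (−0.22), Plin2 (−0.4) and Pnpla2 (−0.45), on the log2 scale, and were named after their values had been seen. This is 8.96% of these genes, against the 3.17% of all genes tested. As background, Plin2 of lipid droplets and Abcg1 are among the genes that macrophages can express. Of the 10 macrophage markers, 8 were called lower with MU than with OE. Against 4OHT, Plin2 was at −0.6 with OE and −1.0 with MU, and Abcg1 at 0.93 and 0.55. All 10 macrophage markers were higher against 4OHT with either construct. The share of the difference between MU and OE that goes with macrophage RNA was not tested.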

How the data were processed

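RNA-seq of cultured mouse SSCs was analysed in 9 libraries, 3 each of 4OHT, MU and OE, grouped by their titles. The members and gene lists were chosen with earlier results of these data known. According to the methods and the submitters' processing notes, trimming used BBmap and Trimmomatic 0.39, alignment to GRCm38 used HISAT2 2.2.1 and quantification used StringTie 2.2.1. The table that the authors deposited holds raw counts, as whole numbers for each gene. How these were made from the StringTie output, how reads with several alignments were counted and whether strand was kept is not given in the sources used here.

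Counts were tested in R 4.3.3 with edgeR 4.0.16 (filterByExpr with minimum count 10 and minimum total count 15, which left 22452 of 53801 genes, TMM scaling, and a quasi-likelihood fit of the group to all 9 libraries). P-values were two-sided and adjusted by the Benjamini-Hochberg method over all genes tested, with a threshold of 0.05. The lowest count of a member in any library was 375. Over highly expressed genes only, the median coefficient of variation was 6.56% with 4OHT, 2.02% with MU and 2.51% with OE. Levels were compared between genes only as CPM per kb of exon (GENCODE vM21, GRCm38), and fold changes came from the fit. Exon length was that of the exons of all annotated transcripts of a gene together, which can exceed the transcript that is expressed. The script was tested on simulated counts. Each member is accounted for. Full values are given for up to 7 called members of each group with the largest change and for 9 core genes, and of the further lists the counts with up to 2 genes of the highest and lowest called in OE versus 4OHT, plus genes chosen after their values were seen. Some genes of the further lists are not reported here by name. Alternatives were DESeq2 1.42.0, its size factors in edgeR, library size alone, no filter on low counts, a replicate block, counts divided by 4, the compared libraries alone, and each library left out. Same-numbered libraries did not deviate together (correlations −0.0195 to 0.0443).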

Additional observations from a re-analysis of the deposited data

How the results depend on the processing

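The differences of every member against 4OHT, and those between MU and OE of the 4 members with an unadjusted p below 0.05, make 70 values. The other differences between MU and OE were followed only as calls, and none was called in any setting. Under 16 settings, 1076 of 1120 values kept their direction and their side of the threshold, 12 passed it in addition, 8 lost the call and 24 changed sign. The 4 called differences that lost the call in some setting (Ebp with OE, and Fdft1, Srebf2 and Stard4 with MU) are given with their values above. No called difference changed sign. Scaling to library size alone raised the median of all genes by 0.088 with OE and by 0.112 with MU, and relative to this shift the medians of the members moved little. Under it the median log2 fold change was −0.261 (OE) and −0.192 (MU) for sterol enzymes and −0.748 (OE) and −0.754 (MU) for fatty acid enzymes. With single libraries left out, the fatty acid median with OE ranged from −0.883 to −0.747, the latter without the third 4OHT library, and between MU and OE from −0.025 to 0.002. The fatty acid median of MU minus OE was also 0.003 with library size alone and 0.018 with no filter on low counts. The number of control genes called with MU ranged from 3 to 5 with single libraries left out. Between MU and OE, 712 of all genes were called, against 1140 with DESeq2, 1565 in the 6 libraries alone (and 1 control gene, Insig2) and 400 to 1099 with single libraries left out. The cause of these shifts was not tested.

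All differences that changed sign were uncalled in the reported fit. With OE, Sqle was −0.008 with DESeq2 and with its size factors, −0.025 with counts divided by 4 and −0.006 in the 6 libraries compared, Mvd was 0.057 with library size alone, and with single libraries left out Sqle ranged from −0.046 to 0.08, Mvd from −0.127 to 0.028 and Pmvk from −0.023 to 0.147. With MU, Hmgcs1 was 0.1, Mvd 0.039 and Insig2 0.02 with library size alone, Hmgcs1 was 0.05 with no filter on low counts, and Pmvk was −0.002 with DESeq2 and with its size factors. With single libraries left out and MU, Hmgcs1 ranged from −0.033 to 0.001, Pmvk from −0.034 to 0.078 and Sqle from −0.019 to 0.108. Fitting the replicate numbers as a replicate block called 12807 genes with OE, 12443 with MU and 674 between MU and OE, and it changed no call of a member. Nothing in the sources used here says whether the numbers mark a shared batch.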
